A study of Mus musculus with 3 samples.

Results

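CTCF peaks in dense clusters were examined in LSK cells, the lineage-negative, Sca1-positive and cKit-positive population of adult C57BL6 mouse bone marrow that includes hematopoietic stem cells and multipotent progenitors. The members were chosen by position alone within the peak list of 1 ChIP library made with an antibody to CTCF. A run was a series of 3 or more neighboring peaks in which each gap between the edges of neighbors was under 10 kb. Of the 18945 peaks of the list, 2248 (11.9%) belonged to the 668 runs found in this way. A further 4552 peaks (24.03%) formed 2276 pairs under the same gap limit, and the remaining 12145 peaks (64.1%), called lone peaks here, had no neighbor within 10 kb. The library has no replicate. The input libraries from LSK and MEP cells were not analyzed here. The sort defines a mixture of stem and progenitor cells, and a peak list of DNA fragments holds no expression values with which the identity of the cells could be checked.

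CTCF is a zinc finger protein that binds a long, asymmetric DNA motif and holds cohesin, the ring complex that extrudes chromatin loops. Loops form preferentially between CTCF sites whose motifs face each other, so the strand of a motif is part of its information. Clusters of CTCF sites are known from the borders of chromatin domains and from gene arrays such as the Hox clusters and the antigen receptor loci, where they separate or select regulatory neighborhoods.

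The sequences behind the clusters are shown for the 4 described runs with the most motif-bearing peaks, because they show how variable the bases around neighboring motifs were and on which strands the motifs lay. Each window has 40 bases of GRCm38.p6, read 5′ to 3′ on the strand of the motif, with the 12 bases of the CTCF core motif in capitals. Peaks are numbered from the left end of each run. The Sfxn3 run is on Chromosome 19, the Trpv4 run on Chromosome 5, the Tex35 run on Chromosome 1 and the Abtb1 run on Chromosome 6. All 13 windows shown for them differ from each other.
Sfxn3 run, peak 2, chr19:45056482-45056521, plus strand: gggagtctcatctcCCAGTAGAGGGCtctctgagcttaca
Sfxn3 run, peak 3, chr19:45064094-45064133, minus strand: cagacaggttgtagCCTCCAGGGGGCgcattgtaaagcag
Sfxn3 run, peak 4, chr19:45074332-45074371, plus strand: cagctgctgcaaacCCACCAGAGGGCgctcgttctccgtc
Sfxn3 run, peak 6, chr19:45081469-45081508, minus strand: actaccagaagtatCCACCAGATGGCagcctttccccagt
Trpv4 run, peak 1, chr5:114608662-114608701, minus strand: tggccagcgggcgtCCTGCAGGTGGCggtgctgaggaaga
Trpv4 run, peak 7, chr5:114639494-114639533, plus strand: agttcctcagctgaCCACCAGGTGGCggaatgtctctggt
Tex35 run, peak 2, chr1:157077254-157077293, minus strand: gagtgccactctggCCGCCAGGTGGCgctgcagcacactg
Tex35 run, peak 3, chr1:157079491-157079530, minus strand: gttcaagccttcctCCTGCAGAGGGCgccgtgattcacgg
Tex35 run, peak 3, chr1:157079523-157079562, minus strand: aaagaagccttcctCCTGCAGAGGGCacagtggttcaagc
Tex35 run, peak 5, chr1:157086285-157086324, minus strand: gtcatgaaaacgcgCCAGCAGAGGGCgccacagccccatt
Abtb1 run, peak 2, chr6:88831664-88831703, minus strand: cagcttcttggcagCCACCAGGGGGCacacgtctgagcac
Abtb1 run, peak 4, chr6:88849404-88849443, minus strand: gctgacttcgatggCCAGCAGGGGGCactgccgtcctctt
Abtb1 run, peak 6, chr6:88861129-88861168, minus strand: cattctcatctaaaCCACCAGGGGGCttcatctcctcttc
In the Sfxn3 run the strands alternated from one motif-bearing peak to the next. In the Tex35 and Abtb1 runs all motifs lay on the minus strand, and peak 3 of the Tex35 run held a pair of them, 32 bp apart. Peak 2 of the Trpv4 run also had a motif, on the plus strand in an exon of Fam222a, which is not shown.

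The runs were mostly short. There were 497 runs of 3 peaks (74.4%), 126 of 4, 30 of 5, 9 of 6, 5 of 7 and 1 of 14. Their spans went from 2186 bp to 38380 bp, with a median of 11.8 kb and quartiles of 8.18 kb and 15.4 kb. Together they covered 8.22 Mb, or 0.312% of Chromosomes 1 to 19 and X, at 273 peaks per Mb of span, where the list as a whole had 7.19 peaks per Mb. Peaks themselves filled a median of 20.04% of a span. The 1580 gaps inside runs had a median of 3746.5 bp, and 293 of them (18.5%) were under 1 kb. These values follow from the rule and are given as a description.

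**Figure D1:**
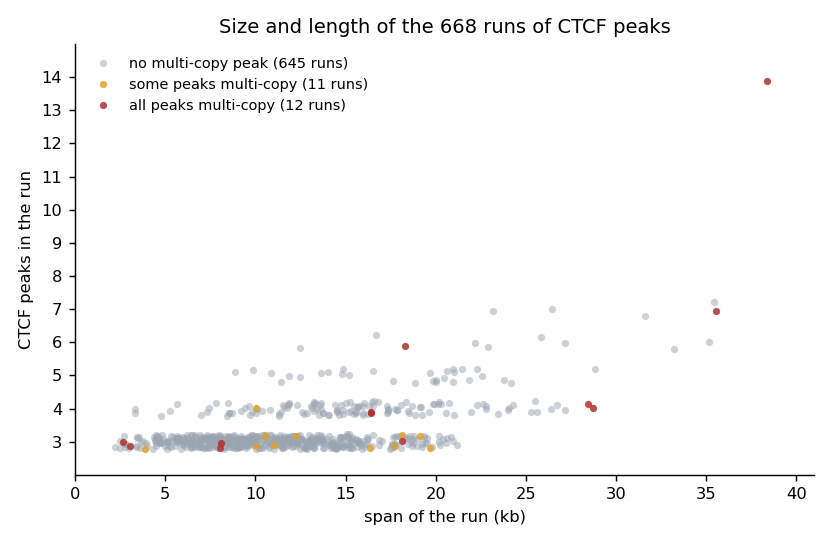
Number of CTCF peaks (y axis, points spread slightly around whole numbers) against the span in kb (x axis) of each of the 668 runs. Colors mark whether none, some or all peaks of a run are multi-copy, that is, have more than 50% of their 36-base words in several places of the genome. The run of 14 peaks stands apart from the rest and is entirely multi-copy.

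The widest gaps inside a run were 9991 bp in a run near Pdzd8 on Chromosome 19, 9984 bp in a run of 6 peaks near Gtf3a on Chromosome 5, and 9979 bp in a run near Ddr1 on Chromosome 17. The mean fold enrichments of these runs were 9.26, 7.89 and 17.8. The nearest groups that missed the rule had gaps of 10010 bp near Slc17a7 on Chromosome 7, 10014 bp near Sdr9c7 on Chromosome 10 and 10039 bp near Elf5 on Chromosome 2, with mean fold enrichments of 9.24, 7.26 and 12.5.

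Chromosome 11 held the most runs, 64, or 52.4 per 100 Mb, and it was also the chromosome with the most peaks per Mb (11.97). The share of a chromosome's peaks that lay in runs was highest on Chromosome 15, at 15.6%, and lowest on Chromosome 3, at 8.52%. Across the 19 autosomes this share was larger where peaks were denser (Spearman correlation 0.59, a description, since the density of peaks enters the rule). Chromosome X had 4 runs, or 2.34 per 100 Mb, and each of these runs contained multi-copy peaks. Peaks of any kind were sparse on Chromosome X, at 1.45 per Mb. The share of them in runs, 10.5%, lay within the range of the autosomes. The next run on the same chromosome was under 100 kb away for 65 runs, the median distance was 989 kb and the smallest 12199 bp. These distances were not set against those of runs placed at random.

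The core motif was about as frequent in run peaks as elsewhere. Without a mismatch it was found in 825 of the 2248 run peaks, or 36.7% (95% Wilson interval 34.7% to 38.7%), where 35.6% of all peaks held it. The share was 36.3% in pair peaks (34.9% to 37.7%) and 35.2% in lone peaks (34.3% to 36.02%), so the intervals of runs and lone peaks overlapped. With 1 mismatch allowed it was 84.3% in run peaks (82.8% to 85.8%) and 83.2% in lone peaks (82.5% to 83.9%). All intervals cover counting error only, and peaks of one run share their surroundings. The counts by run that follow were not set against those of motifs spread at random over the peaks. All peaks held the motif in 29 runs, 2 or more peaks held it in 247 runs (37.0%), and none did in 165 runs (24.7%). With 1 mismatch allowed, all peaks held it in 406 runs (60.8%) and none did in 6 runs. By size, the share was 35.0% in runs of 3 peaks, 44.8% in runs of 4, 37.3% in runs of 5 and 20.4% in runs of 6 or more. In this last group 26.2% of the peaks were multi-copy, and whether that bears on its motif share was not tested.

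The most common core in run peaks with 1 motif was also common elsewhere. The 12 bases CCACCAGGGGGC made up 89 of the 802 cores in run peaks (11.1%) and 477 of the 5786 in other peaks (8.24%). The next one, CCAGCAGAGGGC, made up 8.23% in runs and 9.33% elsewhere, and CCACTAGAGGGC 7.23% and 6.97%. In all, 54 different cores were seen among the 802 in runs and 63 among the 5786 outside them. The number of different cores depends on how many cores are looked at, so these counts do not compare their variety.

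Neighboring motifs in runs seldom faced each other. Among 237 neighboring peaks of a run that each had motifs on a single strand only, 55.3% of the pairs lay on the same strand (95% interval 48.9% to 61.5%), 14.3% faced each other (10.5% to 19.4%) and 30.4% faced apart (24.9% to 36.5%). Among 1918 neighbors 10 kb or more apart, 28.6% faced each other (26.6% to 30.6%), and the intervals do not overlap. The contrast with runs was smaller for the 1262 of these neighbors that were 10 to 100 kb apart, at 24.7% (22.4% to 27.2%). The low share of facing motifs was not particular to runs, since the 298 pairs outside runs with gaps under 10 kb gave 15.4% (11.8% to 19.98%). With 1 mismatch allowed, 14.8% of 957 pairs in runs faced each other (12.7% to 17.2%), 14.4% of 1365 in pairs (12.7% to 16.4%) and 27.8% of 9088 farther apart (26.9% to 28.7%).

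Within runs, same-strand motifs were the largest class at every gap. That class pools plus-plus and minus-minus pairs, while facing and facing apart are 1 combination each. It would therefore be the largest without any strand preference. With 1 mismatch allowed the same-strand share was 63.2% for gaps under 1 kb (55.7% to 70.0%, n = 171), 58.6% for 1 to 5 kb (53.8% to 63.2%, n = 413) and 51.5% for 5 to 10 kb (46.4% to 56.5%, n = 373). The intervals of the nearest and the widest gaps overlap slightly. Facing motifs were 15.2%, 12.1% and 17.7% at these gaps. Leaving out multi-copy peaks gave 53.3% on the same strand and 14.98% facing each other among 227 pairs without a mismatch. Of 245 runs with 2 or more peaks of a single motif strand, 113 (46.1%) had all of them on 1 strand, and of 65 runs with 3 or more such peaks, 19 (29.2%) did. These shares were not set against those of motifs with random strands.

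**Figure D2:**
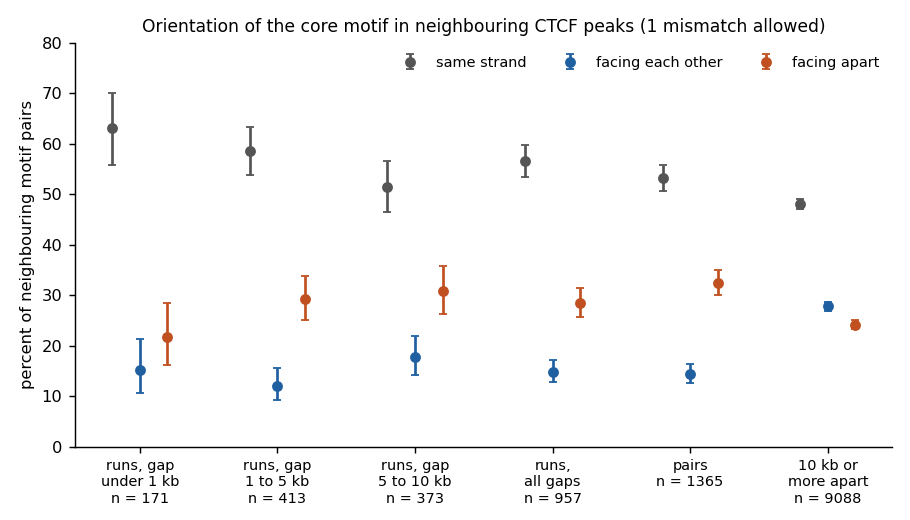
Percent of neighboring CTCF peaks (y axis) whose core motifs, with 1 mismatch allowed, lie on the same strand, face each other or face apart, for neighbors in runs by gap, in pairs, and 10 kb or more apart (x axis). Bars are 95% Wilson intervals. Facing motifs are 14.8% in runs and 14.4% in pairs, and 27.8% at 10 kb or more.

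Run peaks lay in sequence richer in G and C and closer to more genes than lone peaks. Their median GC content was 49.5%, with 47.9% in pair peaks and 46.0% in lone peaks, and 67.7% of run peaks (65.8% to 69.6%) were above the median of all peaks. Around the midpoint of a run peak a median of 4 protein-coding genes started within 100 kb, with 3 for pair peaks and 2 for lone peaks. At a distance of 1 kb, gene starts themselves were not more frequent in runs. A gene start lay within 1 kb for 314 run peaks, or 14.0% (12.6% to 15.5%), where 14.1% of all peaks had one. Within 5 kb the share was 35.5% in run peaks (33.5% to 37.5%) and 31.7% in lone peaks (30.9% to 32.5%). It was highest in pair peaks, at 37.9% (36.5% to 39.4%), and 33.7% in all peaks, so it was not particular to runs. By midpoints, 11.5% of run peaks were in exons (10.2% to 12.9%), 40.9% in introns (38.9% to 42.97%) and 47.6% between genes (45.5% to 49.7%). In lone peaks the shares were 9.68%, 45.4% (44.5% to 46.3%) and 44.9% (44.02% to 45.8%), so that the intervals of the intron shares did not overlap. Pair peaks, at 11.4%, 41.3% (39.9% to 42.8%) and 47.3%, were close to runs, so this difference was not particular to runs. Repeats made up over 50% of the bases in 7.38% of run peaks (6.37% to 8.54%) and 5.66% of lone peaks (5.26% to 6.08%), and pair peaks, at 7.03%, were close to runs.

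**Figure D3:**
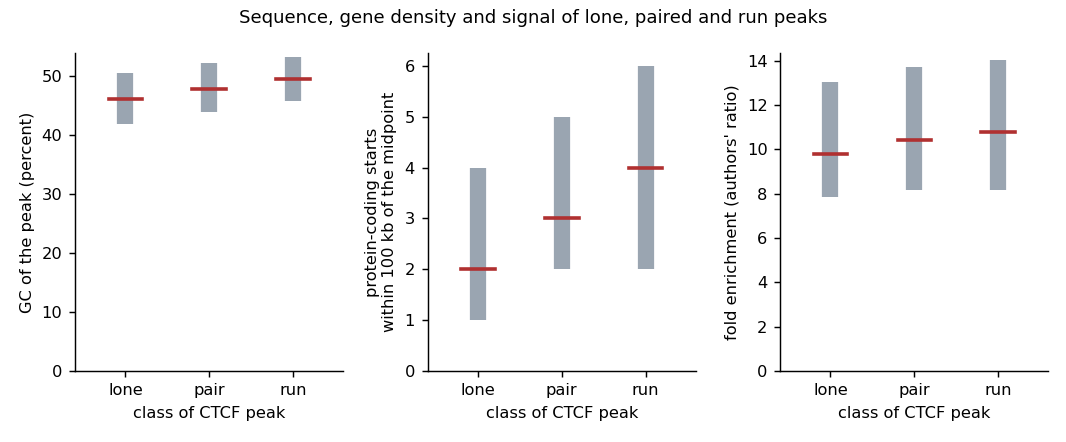
GC content in percent, number of protein-coding starts within 100 kb and the authors' fold enrichment (y axes, each from 0) of lone, pair and run peaks (x axis). Grey bars run from the lower to the upper quartile over peaks and red lines are medians, which go from 46.0% to 49.5% for GC, from 2 to 4 for coding starts and from 9.79 to 10.77 for fold enrichment.

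The fold enrichment comes from the same library that placed the peaks and is described without a test. Its median was 10.77 in run peaks, 10.44 in pair peaks and 9.79 in lone peaks, and values in runs went from 2.94 to 36.55. The median −log10 p-value was 14.1 in run peaks and 11.98 in lone peaks. Peaks at the ends of runs and peaks inside them had the same median of 10.77. In 150 of the 489 runs of 3 with a single strongest peak, that peak was the middle one, or 30.7% (26.8% to 34.9%). The strongest peak of a run was a median of 1.86 times the weakest, and at most 5.09 times. The fold enrichments of neighbors in a run were almost unrelated (Spearman correlation 0.063 over 1580 pairs, 0.029 over the 1517 pairs without multi-copy peaks), as were those of neighbors 10 kb or more apart (0.038 over 15069 pairs).

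Most runs did not contain the start of a protein-coding gene. No start lay inside 489 runs (73.2%), 140 runs held 1 and 39 runs held 2 or more. Of the 21755 protein-coding genes of the annotation, 228 started inside a run, which is 1.05%. The spans of the runs covered 0.312% of the chromosomes. How many starts would lie in spans placed at random was not counted. There were 166 runs wholly inside a coding gene without any start, and 220 runs (32.9%) touched no coding gene. For runs without a start, the nearest one was at a median of 18269 bp. Whole runs lay inside 182 coding genes. The record Gm20388 on Chromosome 8, which is 4.43 Mb long, contained 7 of them and is one of 4 genes with 2 or more.

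The runs with the most peaks were of different kinds. On Chromosome 19, from 45047221 to 45082674, 7 peaks spread over 35454 bp around Sfxn3, which encodes a mitochondrial carrier of the sideroflexin family, and Kazald1, a gene for a secreted protein with a Kazal domain. From left to right their fold enrichments were 8.81, 8.48, 8.81, 14.68, 8.48, 24.47 and 6.20. The first peak covered the start of Sfxn3 and had no motif even with 1 mismatch, and the strongest peak was in an intron of the noncoding gene AC132957.1, 5767 bp from the start of Kazald1. Of the 7 peaks, 4 carried the motif, more than in any other run described by the naming rule.

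On Chromosome 5, a run of 7 peaks from 114608269 to 114639864 reached from the last part of Fam222a into Trpv4, which encodes a calcium-permeable channel. The fold enrichments were 20.23, 8.16, 20.56, 14.68, 9.46, 10.12 and 21.54, so the strongest peaks lay at both ends and in the space between both genes. The nearest coding start, that of Trpv4, was 18557 bp away. Another 7 peaks, from 117493808 to 117516989 on the same chromosome, lay wholly in introns of Ksr2, a scaffold of the MAP kinase pathway. Their fold enrichments were 8.81, 6.53 and 7.50 at the left, 22.19 in the middle, and 14.68, 12.07 and 12.73 at the right. The strongest peak of this run was 1394 bp wide and carried a motif on the plus strand.

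On Chromosome 15, 7 peaks from 103165233 to 103191661 reached from an intron of Smug1, a gene for a DNA glycosylase that removes uracil, over its start to the end of Cbx5, which encodes heterochromatin protein 1 alpha. The fold enrichments were 15.34, 11.75, 15.01, 14.03, 25.78, 8.48 and 11.75. The strongest peak stood in intergenic sequence with 62.3% GC, and this peak and the one to its left, at 14.03, carried the motif, both on the minus strand.

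Among the runs of 6 peaks, that near Tex35 on Chromosome 1 (157076096 to 157092788) had its strongest peaks at the left, with fold enrichments of 21.21, 16.97, 6.53, 7.83, 9.79 and 13.05, and touched no coding gene. That near Myzap on Chromosome 9 (71612904 to 71625380) had 6.20, 12.40, 17.29, 8.81, 10 and 12.07. Its peaks fell into a group of 4 and a group of 2, divided by 5688 bp, and a motif was present only in the last peak, although all 6 peaks held one with 1 mismatch. The run around Abtb1 on Chromosome 6 (88826344 to 88861494) was weak and even, from 6.53 to 11.09, and went from the end of Mgll, which encodes monoglyceride lipase, over the start of Abtb1 into Podxl2. The run at Atp5g2 on Chromosome 15 (102665422 to 102698651), a gene for subunit c of the mitochondrial ATP synthase, had values from 5.87 to 13.38 with a single motif, in its strongest peak.

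**Figure D4:**
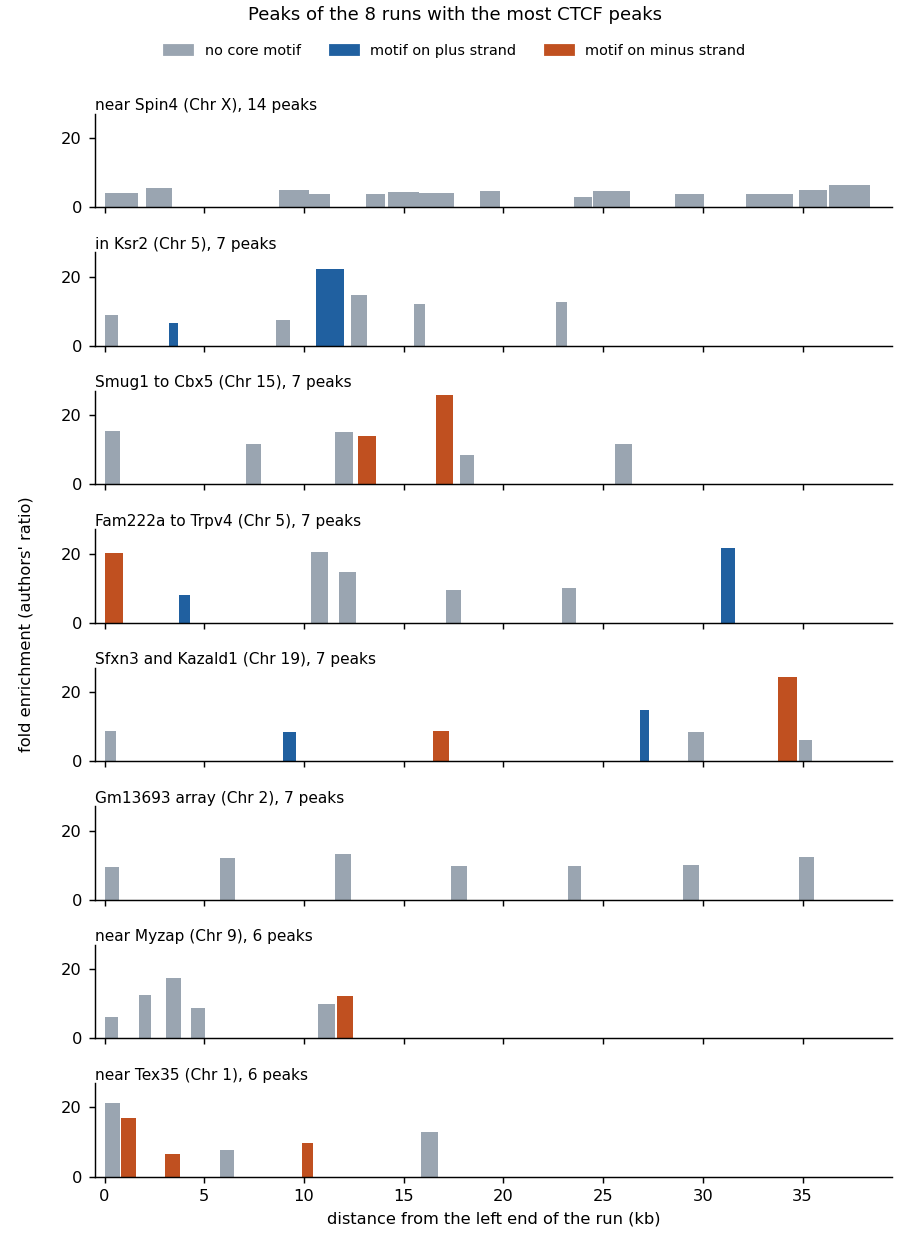
Peaks of the 8 runs with the most CTCF peaks, of which the lowest 2 panels are the shortest in span of the 9 runs of 6 peaks, with the distance from the left end of the run in kb on the x axis and the fold enrichment, a linear ratio, on the y axis. The width of a bar is the width of the peak, and blue and orange bars carry the core motif on the plus and minus strand. The 14 peaks of the run near Spin4 stay at or below 6.53, and the 7 peaks of the Gm13693 array are evenly spaced between 9.46 and 13.24.

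The runs with the highest mean fold enrichment had only 3 peaks each. The highest mean, 22.4, belonged to Chromosome 8 from 122259142 to 122273745, with 30.67, 19.90 and 16.64. The middle peak covered the start of Zfp469, annotated as a lincRNA, and the motifs of the last peaks lay on the minus and the plus strand. Next was a run in intergenic sequence of Chromosome 11 (100295096 to 100300875), 19010 bp from the start of the translation factor gene Eif1, with 21.54, 13.38 and 29.04. The run at the end of Zbtb7c on Chromosome 18 had 14.68, 29.37 and 15.34, that in Trim14 on Chromosome 4 had 27.74, 20.56 and 10.44, and that 36170 bp from Fndc1 on Chromosome 17 had 28.71, 12.73 and 16.31. The highest value was at the left in 3 of these 5 runs.

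The shortest runs were so tight that merging peaks under 1 kb apart turned each of them into 1 peak. In an intron of Arhgef28 on Chromosome 13 (97937754 to 97939939), 3 peaks were 48 and 196 bp apart over 2186 bp, with fold enrichments of 10.44, 13.70 and 5.55. At Alyref2 on Chromosome 1, an mRNA export factor gene, gaps of 176 and 204 bp divided peaks of 8.74, 9.46 and 11.09, and the last of these covered the gene start. The run 6338 bp from the start of Msl1 on Chromosome 11 spanned 2503 bp, with 15.99, 7.18 and 9.46, and that in Vgll4 on Chromosome 6 spanned 2702 bp, with 7.83, 5.87 and 8.48. In an intron of Mocs1 on Chromosome 17, 3 peaks over 2659 bp had almost the same values, 4.96, 4.79 and 4.89, and all were multi-copy.

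Genes of blood cell identity and of other lists were looked up in the runs. Of the lists examined, 1 of 26 regulators of stem and progenitor cells (3.85%), 1 of 20 myeloid genes (5%) and 2 of 39 Hox genes (5.13%) did, where 1.05% of all coding genes did. None of 20 erythroid genes, 20 lymphoid genes, 18 annotated genes of cohesin and CTCF, or 23 imprinted genes started in a run. With counts this small, nothing can be read from the order of the lists or from how they compare with all coding genes.

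Lyl1, a basic helix-loop-helix factor of hematopoietic stem cells, lay in a run on Chromosome 8 from 84699559 to 84709585. Its 3 peaks were of nearly equal strength, 11.42, 12.07 and 11.09, and all overlapped Nfix, whose product is a further factor of stem cells. The first peak lay 1212 bp from the start of Lyl1, and the other 2 carried motifs that faced apart. Cebpb, a factor of granulocyte and monocyte development, started in the last of 5 peaks on Chromosome 2 from 167674965 to 167688963. The fold enrichments were 7.83, 11.09, 15.66, 17.62 and 7.83, and the whole run lay in Tmem189, which is transcribed in the opposite direction. The strongest peak was thus 3220 bp from the start of Cebpb, and the peak over the start was among the weakest.

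The sequence before Cebpb is shown since it places a motif within a promoter of a run. RefSeq's window for GRCm38.p6 was taken for the 250 bases up to the start, all of them inside the peak, with the motif in capitals.
Cebpb promoter, chr2:167688665-167688914, plus strand: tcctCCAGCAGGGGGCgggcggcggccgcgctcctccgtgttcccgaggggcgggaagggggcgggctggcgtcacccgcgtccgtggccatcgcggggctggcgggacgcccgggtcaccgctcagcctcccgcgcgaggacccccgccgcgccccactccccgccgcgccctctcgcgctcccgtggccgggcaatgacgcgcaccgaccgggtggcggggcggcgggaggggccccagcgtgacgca
The motif stands near the far end of the window and on the plus strand, the strand of the gene. Of the 32619 promoter windows of the same length, 1.29% held the motif on either strand. RefSeq windows matched 5 genes whose promoter overlapped a peak of a described run, and in those of Alyref2, Abtb1, Atp5g2 and Sfxn3 it was absent without a mismatch.

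In the Hox clusters, whose genes pattern the body axis, 2 runs held gene starts. Around Hoxd13 and Evx2 on Chromosome 2 (74655383 to 74673408) 3 peaks had 6.53, 6.20 and 6.85, the lowest mean (6.53) among the described runs without multi-copy peaks. The first peak, in an exon of Evx2, had the highest GC content of all run peaks, 74.96%, and a motif on the minus strand. Around Hoxb5 on Chromosome 11 (96294339 to 96312140) the fold enrichments were 9.90, 15.34 and 8.81, with the middle peak over the start of Hoxb5, and no motif was found without a mismatch.

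A small set of runs lay on sequence that occurs several times in the genome. The study kept reads that map to several places, so peaks on such copies can share reads, and how many they shared was not tested. A peak was called multi-copy when more than 50% of its words of 36 bases occurred more than once on Chromosomes 1 to 19 and X. This held for 74 run peaks, or 3.29% (2.63% to 4.11%), and for 2.69% of all peaks. They were in 23 runs, of which 12 were multi-copy in all of their 58 peaks. The median fold enrichment was 7.67 in the multi-copy run peaks and 10.77 in the others.

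The largest run of all was one of these. On Chromosome X from 94877750 to 94916129, 14 peaks filled 20736 of 38380 bp. They were broad, with a median of 1454 bp against 729 bp in all run peaks, and weak, from 2.94 to 6.53. None of them held a motif even with 1 mismatch, and their 36-base words had a median of 22 copies. The nearest coding start, Spin4, was 110553 bp away. A run of 3 peaks followed 55896 bp to the right, and a run of 6 peaks was found from 126746828 to 126765108. Both had fold enrichments from 4 to 5.55, no motif and 18 and 17.5 copies.

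Another kind was an array of copies with regular spacing. On Chromosome 2 from 83958588 to 83994155, 7 peaks alternated with 6 protein-coding genes on the plus strand, Gm13693, Gm13695, Gm13696, Gm13694, Gm13697 and Gm13691. The fold enrichments were 9.46, 12.07, 13.24, 9.79, 9.65, 10.08 and 12.40, and the median copy number was 7 in each. The first 6 peaks held a motif with 1 mismatch at the same place of each unit, and the windows are shown because they repeat exactly at every 5810 bp.
Gm13693 array, peak 1, chr2:83959128-83959167, plus strand: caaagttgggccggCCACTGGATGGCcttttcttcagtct
Gm13693 array, peak 2, chr2:83964938-83964977, plus strand: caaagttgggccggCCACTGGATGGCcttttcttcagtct
Gm13693 array, peak 3, chr2:83970748-83970787, plus strand: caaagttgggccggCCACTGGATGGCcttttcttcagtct
Gm13693 array, peak 4, chr2:83976558-83976597, plus strand: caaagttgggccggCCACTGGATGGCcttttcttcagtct
Gm13693 array, peak 5, chr2:83982368-83982407, plus strand: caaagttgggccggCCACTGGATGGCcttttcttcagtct
Gm13693 array, peak 6, chr2:83988178-83988217, plus strand: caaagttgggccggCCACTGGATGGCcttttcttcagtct
All 6 windows are the same sequence. The last peak had no such site, although its fold enrichment of 12.40 was the second highest.

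The third kind was the variable part of the T cell receptor alpha locus on Chromosome 14, where duplicated blocks of Trav genes are known. It held 5 runs with multi-copy peaks. The run at Trav5d-2 to Trav12d-3 (52913625 to 52930024) had 12.40, 6.20, 10.44 and 8.81, and the run at Trav5n-2 to Trav12n-3 (53224545 to 53240957) had 11.75, 7.50, 10.12 and 10.12. Each had a motif in its last 3 peaks, all on the plus strand, and the windows are shown to compare the copies.
Trav d run, peak 2, chr14:52915721-52915760, plus strand: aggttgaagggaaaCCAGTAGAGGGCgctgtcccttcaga
Trav d run, peak 3, chr14:52920364-52920403, plus strand: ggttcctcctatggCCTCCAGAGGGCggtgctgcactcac
Trav d run, peak 4, chr14:52929584-52929623, plus strand: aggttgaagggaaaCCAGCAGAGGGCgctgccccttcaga
Trav n run, peak 2, chr14:53226695-53226734, plus strand: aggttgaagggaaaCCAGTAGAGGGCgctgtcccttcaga
Trav n run, peak 3, chr14:53231354-53231393, plus strand: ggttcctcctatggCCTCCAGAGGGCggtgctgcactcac
Trav n run, peak 4, chr14:53240546-53240585, plus strand: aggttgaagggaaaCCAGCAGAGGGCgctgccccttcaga
The 3 windows of one run were identical to the 3 of the other. The fold enrichments were 6.85, 17.20, 13.03 and 6.53 in a further run, at Trav3d-3 to Trav9d-4, and 5.75, 16.64, 16.31 and 7.83 in that at Trav3n-3 to Trav9n-4, whose windows were not compared. The run at Trav3-3 and Trav9-4 had 16.64, 13.38 and 7.18. In all 5 runs, 3 peaks had the motif and all of these motifs were on the plus strand. Since reads from one copy can be placed on another, these values are not independent of each other, and how much of the likeness comes from shared reads was not tested.

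When multi-copy peaks were left out before runs were built, an alternative added after the data were seen, 646 runs with 2159 peaks remained, and the share with the motif was 37.2%. The array on Chromosome 2 and the 3 runs of repeated sequence on Chromosome X named above consist of such peaks alone.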

How the data were processed

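CTCF peaks of 1 LSK ChIP library were analyzed. The paper's methods state that reads were mapped with Bowtie to mm10, that reads mapping to several places were allowed, that reads on ChrM and unplaced sequence were removed, and that peaks were called with MACS. Bowtie 1.0.0 and bcl2fastq stand in the submitters' processing notes. The sources used here give neither the MACS settings nor whether an input was used. The deposited list gives, per the authors' peak caller, a fold enrichment (a linear ratio) and a −log10 p-value for each peak. Its false discovery rate was not used. Read depth is not in the list.

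Runs, motifs (12-letter CTCF core motif, both strands), GC, repeats (soft-masked bases), 36-base words and genes were computed with numpy 2.4.6, scipy 1.17.1 and pandas 2.3.3 under Python 3.11.15 from GRCm38.p6 and GENCODE M21, which share coordinates with mm10. Positions are 1-based. Steps were tested on simulated data. Without a replicate no p-value was computed, and shares carry 95% Wilson intervals.

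The members and lists were chosen with earlier results of these data known. Runs named were the 8 with the most peaks (ties by shorter span), the 5 shortest, the 5 longest, the 5 with the highest mean fold enrichment, and up to 2 per gene list. Trav runs were chosen after their values were seen. Alternatives were other gap limits, run sizes, thresholds, merged peaks, repeats, and motif and gene settings.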

Additional observations from a re-analysis of the deposited data

How the results depend on the processing

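Counts were taken as unchanged within 1.5 times, and shares within the 95% interval of the reported value. By this measure 43 of 74 alternatives left a value unchanged and 31 did not. With gaps under 5 kb there were 290 runs, 945 peaks in runs, 62 coding genes with a start in a run and 2 members of the gene lists. With gaps under 20 kb there were 1341 runs, 4890 peaks, 949 coding genes and 19 list members, and 65.1% of run peaks were above the median GC content. With runs of 4 or more there were 171 runs, 757 peaks, 81 coding genes and 1 list member, 40.03% of peaks held the motif, 5.68% shared over 50% of their words with another peak, and 73.0% were above the median GC content. Among peaks with a −log10 p-value at or above the median there were 177 runs, 559 peaks, 54 coding genes and 1 list member. In these runs 42.8% of peaks held the motif (41.6% of all such peaks), 10.7% were at a gene start (14.8%) and 0.537% shared words. Merging peaks under 1 kb apart lowered the counts to 496 runs, from 668, and 1628 peaks in runs, from 2248. Both stayed within 1.5 times. Merging gave a motif share of 39.1% (36.4% of all merged peaks). Peaks with shared words were 1.96% without repeats and 0 without multi-copy peaks. With the settings used for the results the share was 2.89% in run peaks, against 1.96% of all peaks. Shared words were not counted over all peaks of the stricter list or without repeats. The motif share was 84.3% with 1 mismatch and 33.6% in the central 200 bp. At a window of 5 kb the gene start share was 35.5%, and 8.59% with protein-coding genes only. Widening spans by 10 kb gave 544 coding genes. Counts that changed with the gap, the run size, the reach or fewer peaks, shares that changed with the window, the mismatch or the gene set, and shared words without multi-copy peaks, moved by construction. For the remaining shares that changed the cause was not tested. The same-strand share stayed between 50.8% and 61.1%, and the share of middle peaks that were strongest between 29.7% and 33.3%. Leaving out a replicate does not apply. No paired analysis was possible because the peaks come from a single ChIP library.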

Other observations

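The following runs lie outside the naming rule and were chosen after their values were seen. Beyond the 3′ end of the immunoglobulin heavy chain locus on Chromosome 12, a run of 5 peaks reached from 113215722 to 113224595, 30235 bp from Igha, the last constant gene. Its fold enrichments were 8.74, 19.90, 12.73, 22.19 and 12.40, and the peaks at 12.73 and 22.19 carried motifs, both on the plus strand. The preceding run, of 3 peaks at Crip2, Crip1 and Tedc1, had 16.31, 16.89 and 12.73.

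In the protocadherin gamma cluster on Chromosome 18, 3 peaks with fold enrichments of 9.46, 7.83 and 5.87 each covered a gene start, those of Pcdhgb6, Pcdhgb7 and Pcdhgb8. None held the motif without a mismatch. At S100a6 on Chromosome 3, a gene for a calcium-binding protein, the values were 9.79, 12.40 and 5.55, with the first peak over the start and with the motif. A run of 4 peaks on Chromosome 2 from 32566507 to 32587230 held the starts of 4 coding genes, as did the protocadherin run, with only the Gm13693 array holding more, among them Dpm2, a gene of dolichol phosphate mannose synthesis, and St6galnac4, a sialyltransferase gene. Its fold enrichments were 11.09, 8.81, 12.40 and 6.53, none of its peaks had the motif, and its second and last peaks covered gene starts, those of Pip5kl1 and St6galnac4. The run around Sfxn3 on Chromosome 19 was preceded at 13958 bp by a tight run of 4 weaker peaks in Pdzd7, with 7.18, 6.53, 7.83 and 8.16, of which the first 2 carried motifs that faced each other.

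Among the 29 runs with a motif in every peak, 5 had 4 peaks. In that 16791 bp from Ptma on Chromosome 1 the motifs were on the plus strand in all 4 peaks, with fold enrichments of 10.77, 17.29, 6.53 and 13.70. In that on Chromosome 5 from 113167557 the first 2 lay on the minus strand and the last 2 on the plus strand, and the same order was found in the run on Chromosome 18 from 75597871, which had 8.48, 28.71, 6.85 and 13.70. In the other 2 the strands were not divided 2 and 2. In that on Chromosome 9 from 120410254 (12.40, 8.48, 7.50 and 15.34) the peak at 7.50 alone had its motif on the minus strand. In that on Chromosome 16 from 30520308 (16.97, 5.22, 10.77 and 10.54) the last peak alone had its motif on the plus strand, so minus again came before plus.

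The list has 1 library and no read depth, so whether weak or closely spaced peaks would be called again was not tested. Peaks under 1 kb apart were counted as separate, as the list gives them.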
